A study of Mus musculus with 4 samples.

Results

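The spindle assembly checkpoint genes described here are *Ttk*, which encodes the kinase MPS1 and is deleted in germ cells of the Mps1sKO mice, and 7 partners of it, *Bub1*, *Bub1b*, *Bub3*, *Mad1l1*, *Mad2l1*, *Mad2l1bp* and *Trip13*. They were chosen by gene symbol from knowledge of the pathway, not by a measured value, though earlier results of these data were known. All 8 were found among the 55820 loci of the expression table and passed the filter on low counts, which left 20561 tested loci. RNA was sequenced from whole testes of male C57BL/6J mice at P10, with 2 control libraries and 2 libraries from Mps1sKO mice, in which *Ttk* flanked by *LoxP* sites is cut by *Stra8*-Cre. This Cre is active in germ cells alone and first appears after birth, in spermatogonia at P3, so Sertoli, Leydig and other somatic cells of the testis keep an intact gene. The exact alleles of the control mice and whether each library came from 1 mouse are not given in the sources used here, so p-values measure only the spread between these libraries. The libraries held 23311689 to 28607746 counts, mitochondrial genes took 2.52% to 3.14% of them, and every member had at least 228 counts in each library.

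The checkpoint holds a dividing cell in metaphase until each chromosome is attached to spindle microtubules. MPS1 is recruited to unattached kinetochores and phosphorylates the scaffold KNL1, to which BUB3 and BUB1 then bind, and MAD1 brought there converts MAD2 into the form that captures CDC20. MAD2, BUBR1 (the product of *Bub1b*), BUB3 and CDC20 make up the mitotic checkpoint complex, which blocks the anaphase-promoting complex, and TRIP13 with its adaptor p31comet (the product of *Mad2l1bp*) takes MAD2 apart from it again. At P10, mouse testes hold dividing spermatogonia, spermatocytes that are entering meiosis and Sertoli cells that have not yet all stopped dividing.

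*Ttk* is on the forward strand of mouse chromosome 9, from 83834689 to 83872389 on GRCm38, and the transcript Ttk-201 of GENCODE M21 has 22 exons, 2871 bases and 830 coding codons. The *LoxP* sites lie in intron 5 and intron 8, so that Cre removes exons 6 to 8, which together hold 283 bases. Their sequences are shown because they are what the knockout allele lacks, in lower case throughout.
exon 6, chr9:83843628-83843742, 115 bases: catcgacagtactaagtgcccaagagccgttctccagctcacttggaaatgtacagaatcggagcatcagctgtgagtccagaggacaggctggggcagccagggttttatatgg
exon 7, chr9:83843884-83843956, 73 bases: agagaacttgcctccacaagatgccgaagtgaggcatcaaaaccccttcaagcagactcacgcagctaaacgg
exon 8, chr9:83844047-83844141, 95 bases: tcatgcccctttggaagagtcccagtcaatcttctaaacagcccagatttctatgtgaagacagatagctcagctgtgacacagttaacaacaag
All 3 exons are coding. Since 283 leaves a remainder of 1 when divided by 3, joining exon 5 to exon 9 shifts the reading frame. In the reference sequence this join keeps 200 codons, adds 24 codons in the shifted frame and reaches a stop in exon 9. The sequences around the joins differ as follows, with 30 bases on each side and capitals for the downstream exon.
exon 5 to exon 6, intact: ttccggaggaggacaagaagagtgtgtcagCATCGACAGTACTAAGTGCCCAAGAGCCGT
exon 8 to exon 9, intact: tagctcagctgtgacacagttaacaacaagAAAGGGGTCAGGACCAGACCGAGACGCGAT
exon 5 to exon 9, after the deletion: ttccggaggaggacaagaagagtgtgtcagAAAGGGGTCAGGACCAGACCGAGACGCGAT
The last of these was worked out from the annotation and was not observed, since the table has counts per gene and none per exon or junction. The removed exons are 9.86% of the transcript and 5.75% of the 4919 exonic bases that the table gives as the length of *Ttk*, so RNA of the recombined allele can still be counted over the other exons. The qPCR primers of the study for this gene lie outside the deletion as well, and amplify 150 bases from exon 11 to exon 13.

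**Figure D1:**
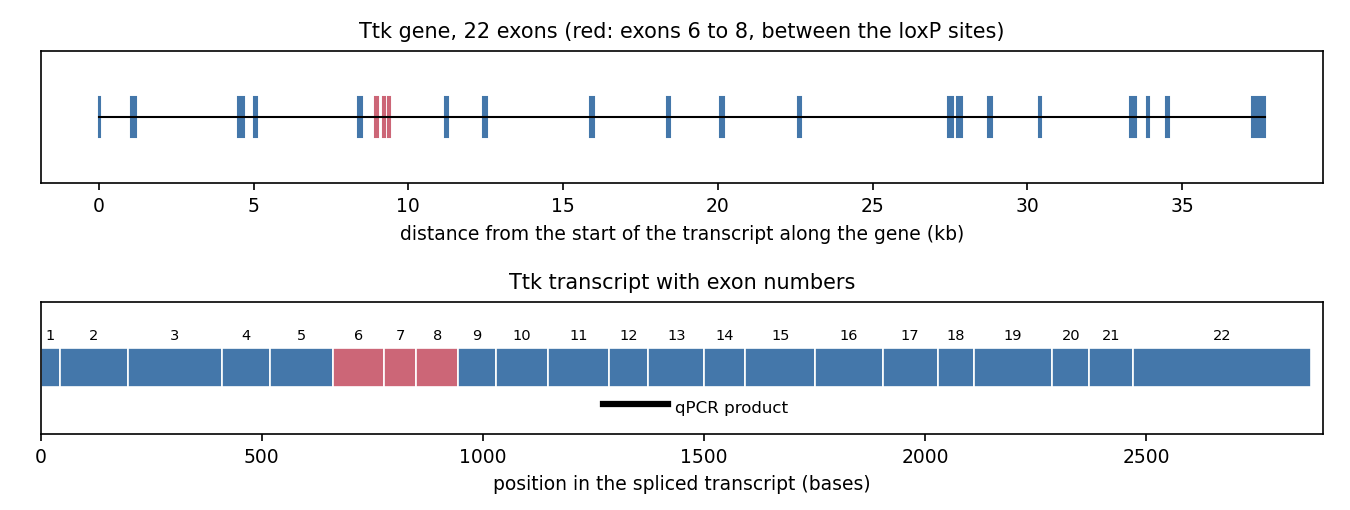
The upper panel draws the 22 exons of *Ttk* against the distance from the start of transcript Ttk-201 in kb, and the lower panel the spliced transcript in bases with exon numbers. Exons 6 to 8 of Ttk-201, taken to be those between the *LoxP* sites, are red and hold 283 of 2871 bases. The black bar marks the 150-base qPCR product over exons 11 to 13.

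*Ttk* was covered by 750 and 940 counts in control testes and by 302 and 326 counts in Mps1sKO testes. Scaled to library size with TMM factors, in the unit CPM used throughout for normalised counts, these were 27.9 and 32.6 CPM in control testes and 13.0 and 12.2 CPM in Mps1sKO testes. Both Mps1sKO libraries were below both control libraries, and the gap between the groups was wider than the range within either. The mean was 30.2 ± 3.35 CPM in control and 12.6 ± 0.614 CPM in Mps1sKO testes (SD, n = 2), so 41.7% of the control level was still counted. *Ttk* fell by 1.26 on the log2 scale (SE 0.129), with an adjusted p of 0.0461 in edgeR's quasi-likelihood test over all tested loci. The study had already named this gene, as *Mps1*, among those changed in these data and measured by qPCR at P10. The fall seen here is therefore not separate support. At an adjusted p below 0.05 only 6 loci were lower in Mps1sKO testes, 0.0292% of those tested, and *Ttk* ranked number 6 by p. With the same rule 0 loci were higher (0.0%), against 807 at an unadjusted p below 0.05 and against 7 with DESeq2 and 0 with limma-voom at an adjusted p below 0.05. The call on *Ttk* was lost, among other settings, with limma-voom (adjusted p = 0.0745), with at least 10 counts required in every library (0.0573) and with annotated genes only (0.0509), while the log2 change stayed at −1.29 to −1.26 in the alternatives that kept all 4 libraries. RNA from a whole testis was counted, so fewer cells that make *Ttk* and less *Ttk* RNA in each cell cannot be told apart.

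Of the 8 checkpoint genes, *Ttk* alone passed an adjusted p of 0.05, and it was also the only one past the cut-offs of the study, which are more than a 1.5-fold change at an unadjusted p below 0.01. Of all tested loci, 0.681% met these in the lower and 0.146% in the higher direction. The cut-offs were applied here to the edgeR results, whereas the study used DESeq2. Passing them here is therefore not the same as being in the study's own gene lists. At an unadjusted p below 0.05, 5 of the 8 were lower (*Ttk*, *Bub1*, *Bub1b*, *Mad2l1* and *Trip13*) and 0 were higher, where 5.37% of all tested loci were lower and 3.92% higher. DESeq2 and limma-voom gave the same counts of 5 lower and 0 higher at this threshold, and 0 of the 7 partners at an adjusted p below 0.05. The count of 5 dropped to 1 without the second control library and to 3 without the second Mps1sKO library. The same 5 genes had both Mps1sKO libraries below both control libraries, *Mad2l1bp* had both above, and *Bub3* and *Mad1l1* overlapped between the groups. Among all tested loci, 21.1% were separated in the lower and 20.3% in the higher direction. The median log2 difference of the 8 genes was −0.30, where that of all tested loci was 0.00027.

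**Figure D2:**
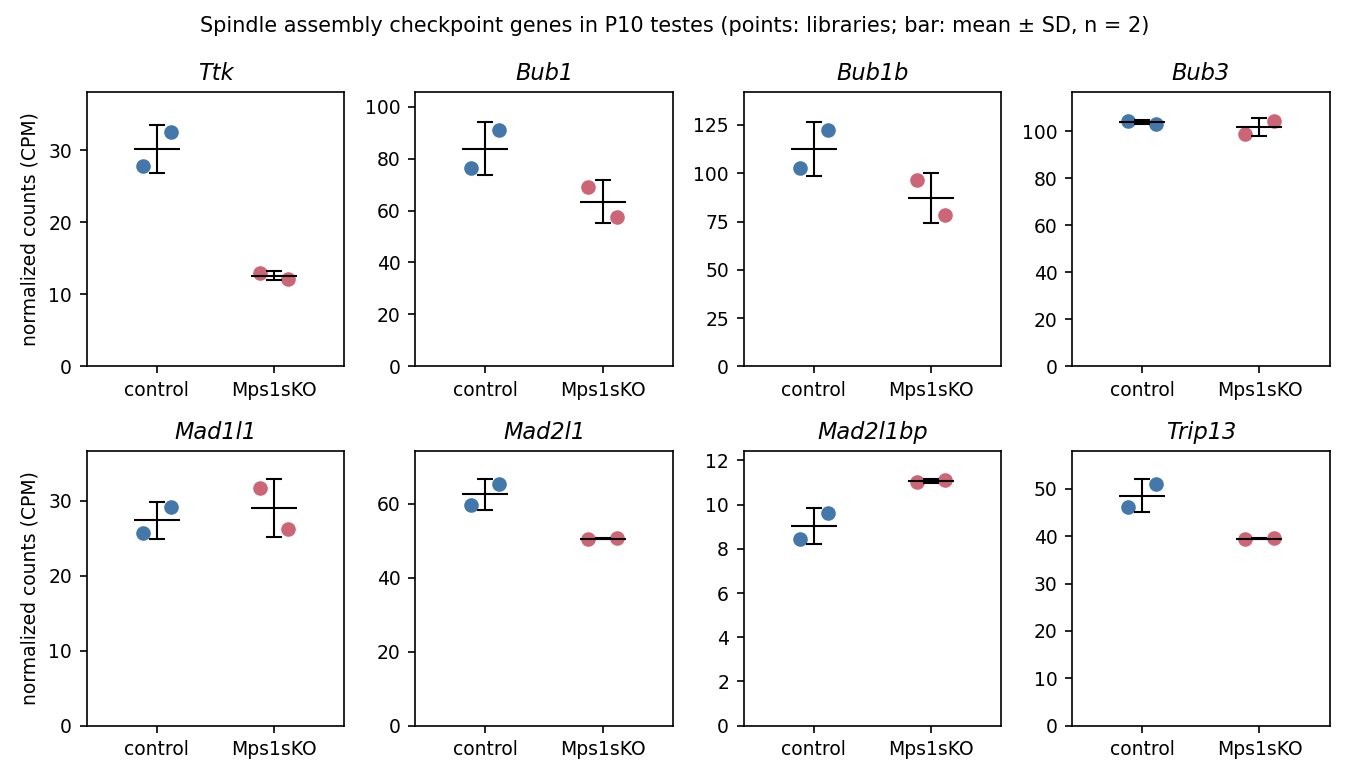
Each panel plots the normalised count (CPM, linear axis from 0) of 1 checkpoint gene in the 2 control and 2 Mps1sKO libraries, with the mean and SD as bars. *Ttk* was at 27.9 and 32.6 CPM in control and 13.0 and 12.2 CPM in Mps1sKO testes, while *Bub3* stayed between 99.1 and 104.6 CPM in all 4 libraries.

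*Bub1* encodes a kinase that docks on KNL1 and marks centromeric chromatin for the shugoshins, from the reverse strand of chromosome 2 (127801122 to 127831865 on GRCm38, as for the genes that follow). Its levels were 76.5 and 91.1 CPM in control testes and 69.2 and 57.5 CPM in Mps1sKO testes, from 1540 to 2626 counts. The Mps1sKO libraries were the lower ones, though the gap between the groups was narrower than the distance between the libraries of either group. The mean of the knockout testes was 75.6% of the control mean, a log2 difference of −0.40 (SE 0.128) with an adjusted p of 0.497 in edgeR. Without any filter on low counts the adjusted p of *Bub1* was 0.0283.

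*Bub1b* encodes BUBR1, the pseudokinase of the mitotic checkpoint complex, and lies on the same chromosome on the forward strand (118598211 to 118641591). It was measured at 103 and 122 CPM in the control libraries and at 96.3 and 78.1 CPM in the Mps1sKO libraries. As for *Bub1*, the second control library was the highest and the second Mps1sKO library the lowest. The difference was −0.37 on the log2 scale (SE 0.132), or 77.5% of control, with an adjusted p of 0.507 in edgeR. It was −0.22 without the second Mps1sKO library and −0.24 without the second control library.

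*Bub3* encodes the propeller-shaped adaptor that carries both BUB1 and BUBR1 to kinetochores (chromosome 7, 131560222 to 131571895, forward strand). In contrast to its binding partners, *Bub3* was nearly level over the libraries, at 104.5 and 103.3 CPM in control and 99.1 and 104.6 CPM in Mps1sKO testes. The groups overlapped, and the second Mps1sKO library was the highest of the 4. The log2 difference was −0.028 (SE 0.0865, edgeR adjusted p = 0.94), and its sign turned, to 0.010, without the first Mps1sKO library.

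*Mad2l1* encodes MAD2, the protein that changes shape to capture CDC20 (chromosome 6, 66535390 to 66547220, forward strand). Its levels were 59.6 and 65.5 CPM in control testes and 50.5 and 50.6 CPM in Mps1sKO testes, with the groups apart and the Mps1sKO libraries nearly equal. This was 80.8% of the control mean, a log2 difference of −0.31 (SE 0.0947) with an adjusted p of 0.494 in edgeR. *Mad1l1* encodes MAD1, the kinetochore partner that binds and converts MAD2 (chromosome 5, 140008689 to 140321552, reverse strand). It was at 25.7 and 29.2 CPM in control and at 31.8 and 26.3 CPM in Mps1sKO testes, so that the groups overlapped. Its log2 difference of 0.079 (SE 0.131, edgeR adjusted p = 0.876) became −0.012 without the first control library and −0.064 without the first Mps1sKO library. *Mad1l1* is also the only member whose exons overlap another annotated gene, over 37 of its 3649 exonic bases on the opposite strand (*Gm16121*), and strandedness of the counting is not given in the sources used here. Pseudogene copies of *Mad2l1* and *Bub3* in the table had at most 3 counts in any library.

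*Trip13* encodes the ring-shaped ATPase that remodels MAD2 and, in meiotic cells, other HORMA domain proteins (chromosome 13, 73911347 to 73937784, reverse strand). Its levels were 46.1 and 51.0 CPM in control testes and 39.4 and 39.6 CPM in Mps1sKO testes, again with the groups apart. The Mps1sKO mean was 81.3% of control, at a log2 difference of −0.30 (SE 0.0981) with an adjusted p of 0.497 in edgeR. *Mad2l1bp*, whose product p31comet presents MAD2 to TRIP13 (chromosome 17, 46147387 to 46153553, reverse strand), was the 1 member with higher values in both Mps1sKO libraries. It had 8.47 and 9.60 CPM in control and 11.01 and 11.12 CPM in Mps1sKO testes, from 228 to 298 counts. The log2 difference was 0.29 (SE 0.145), or 122.4% of control, with an adjusted p of 0.583 in edgeR, so it did not pass either threshold.

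Per exonic length, in the FPKM values of the authors (fragments scaled by gene length and library size), *Ttk* was the lowest of the 8 genes in both groups, at a mean of 6.10 FPKM in control and 2.55 FPKM in Mps1sKO testes. In control testes *Bub1b* was highest at 26.1 FPKM, followed by *Bub1* (19.1), *Bub3* (14.7), *Trip13* (13.9), *Mad1l1* (7.47), *Mad2l1* (7.40) and *Mad2l1bp* (7.05). The values of the 2 control libraries did not overlap between neighbours in this order, apart from *Mad1l1* with *Mad2l1* and *Mad2l1* with *Mad2l1bp*. In Mps1sKO testes the order was *Bub1b* (20.3 FPKM), *Bub1* and *Bub3* (both 14.5), *Trip13* (11.3), *Mad2l1bp* (8.67), *Mad1l1* (7.92) and *Mad2l1* (6.01). Here *Bub1* and *Bub3* overlapped, and so did *Mad2l1bp* and *Mad1l1*. On this scale the regulator *Mad2l1bp* overlapped its substrate *Mad2l1* in control testes and stood above it in both libraries of Mps1sKO testes. The scale divides by all exonic bases given for a gene, 8390 for *Mad2l1* and 1272 for *Mad2l1bp*, so the order between genes depends on these lengths. In counts *Mad2l1* was the higher of this pair in every library, at 1170 to 1888 against 228 to 298.

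Ratios of counts within a library do not depend on the scaling between libraries. For each 100 counts of *Bub1*, control testes had 36.4 and 35.8 counts of *Ttk* and Mps1sKO testes 18.8 and 21.2. The control libraries, which differed in the level of both genes, had almost the same ratio. Per 100 counts of *Mad2l1* the *Ttk* counts were 46.7 and 49.8 in control and 25.8 and 24.0 in Mps1sKO testes. Against each of the 7 partners, *Ttk* was lower in both Mps1sKO libraries than in both control libraries. Groups were also apart for 16 of the 21 pairs without *Ttk*, so separation by itself is not particular to *Ttk*. The geometric mean ratio of *Ttk* was 34.1% (to *Mad2l1bp*) to 55.3% (to *Bub1*) of control. With 2 libraries against 2, an exact permutation test (two-sided) cannot give less than 0.333, which each of the 7 *Ttk* ratios had before and after adjustment.

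Among the other 21 pairs of members, 2 ratios varied least over the libraries, and they are given as a description since they were picked for it. *Mad2l1* had 129.4, 128.3, 128.1 and 128.0 counts per 100 counts of *Trip13* in the 2 control and then the 2 Mps1sKO libraries. The highest of these is 1.011 times the lowest, and the 95% exact binomial intervals, which cover counting error only, ran from 117.4 to 139.9 over the 4 libraries. *Bub1* had 74.6, 74.4, 71.8 and 73.5 counts per 100 counts of *Bub1b*, with the highest 1.038 times the lowest and intervals from 67.3 to 79.0. In both pairs, the ratio of each library lay within the counting intervals of the other 3 libraries. Over all 28 pairs, the median of the highest ratio divided by the lowest was 1.453. MAD2 and its adaptor were unlike this, with 704.4 and 681.6 counts of *Mad2l1* per 100 counts of *Mad2l1bp* in control and 458.8 and 455.4 in Mps1sKO testes, 66.0% of control. *Trip13* and *Mad2l1bp*, which act on the same substrate, differed in direction too, with 18.4 and 18.8 counts of *Mad2l1bp* per 100 counts of *Trip13* in control and 27.9 and 28.1 in Mps1sKO testes.

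**Figure D3:**
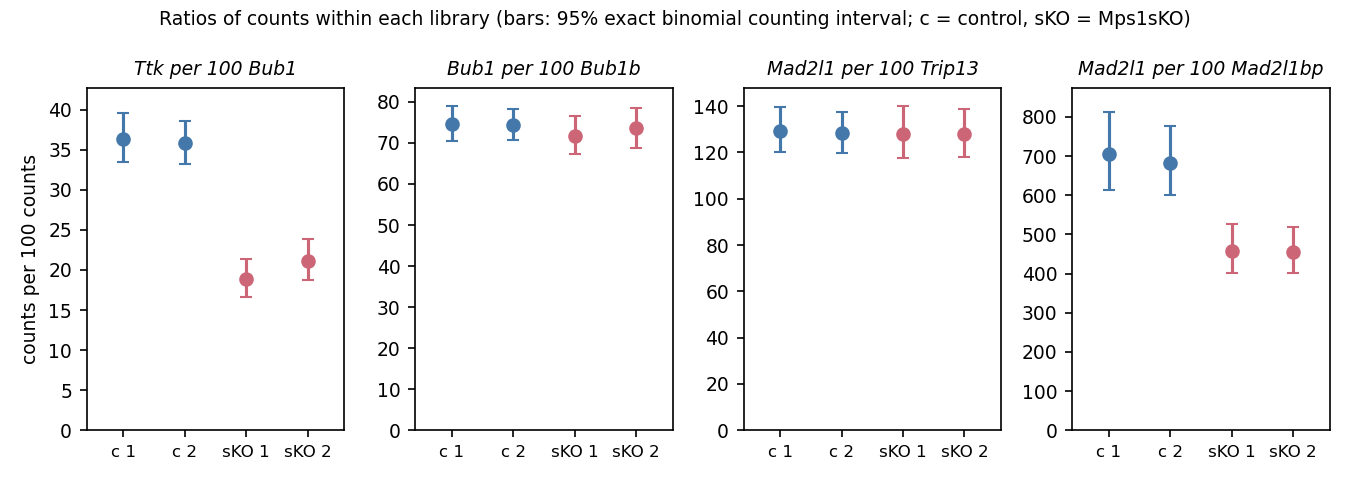
Each panel plots counts of 1 gene per 100 counts of another in each library (c, control; sKO, Mps1sKO; linear axis from 0), with 95% exact binomial intervals for counting error. *Ttk* per 100 *Bub1* dropped from 36.4 and 35.8 to 18.8 and 21.2, *Bub1* per 100 *Bub1b* and *Mad2l1* per 100 *Trip13* were level over the 4 libraries, and *Mad2l1* per 100 *Mad2l1bp* was 704.4 and 681.6 in control and 458.8 and 455.4 in Mps1sKO testes.

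Markers of the cell types of the testis were read beside the members, and none was at 0 in every library. Of 10 germ cell markers, all were lower in both Mps1sKO libraries than in both control libraries, and 8 at an unadjusted p below 0.05. Among all tested loci, 21.1% were separated in the lower and 20.3% in the higher direction, with 5.37% lower and 3.92% higher at that threshold. In mean level, 10268 of the 20561 were lower and 10293 higher. The median log2 difference of the germ cell markers was −0.47, and −0.26 without the second Mps1sKO library. Their summed level was 1367 and 1629 CPM in control and 1225 and 951.5 CPM in Mps1sKO testes. The values went from −0.75 for *Tex101*, a germ cell surface protein and the only one of these markers past the study's cut-offs, to −0.30 for *Nanos3*. Meiotic prophase genes were all lower as well (14 of 14, median −0.60, 13 at an unadjusted p below 0.05), and summed to 749.7 and 984.4 CPM in control and 626.2 and 522.3 CPM in Mps1sKO testes. They ran from *Meioc* at −0.90 to the cohesin gene *Rec8* at −0.071. Of these, 9 passed the study's cut-offs (*Sycp1*, *Sycp2*, *Syce1*, *Tex12*, *Stag3*, *Dmc1*, *Spo11*, *Meioc* and *Prdm9*), against 0.681% of all tested loci. The study had already reported *Stra8*, *Sycp1*, *Sycp3*, *Syce1*, *Stag3*, *Meioc* and *Prdm9* as changed in these same data, so their calls here are not separate support. Of 6 genes of differentiating spermatogonia, *Stra8* (−0.79) and *Rhox13* (−0.70) passed these cut-offs, and the median was −0.51, whereas 8 genes of undifferentiated spermatogonia were split 4 to 4 (median −0.060), with 3 lower and 0 higher at an unadjusted p below 0.05. The 11 tested Sertoli markers of 12 were higher in mean (median 0.37, from 0.080 for *Cldn11* to 0.67 for *Amh*), 4 of them in both libraries and 3 at an unadjusted p below 0.05, and summed to 5212 and 5571 CPM in control and 6914 and 6142 CPM in Mps1sKO testes. The Sertoli marker *Rhox5* had 1 count in all and was not tested. At an adjusted p below 0.05, edgeR and limma-voom called 0 genes of the germ cell, meiotic prophase and Sertoli lists, while DESeq2 called 3 germ cell and 2 meiotic prophase genes lower. Markers of Leydig, peritubular myoid, macrophage, endothelial and red blood cells had medians between −0.12 and 0.18, with 0 genes of each list at an unadjusted p below 0.05. All 5 peritubular myoid markers were lower, 4 of them in both Mps1sKO libraries. The 6 Leydig markers were 2 lower and 4 higher, from −0.66 (*Star*) to 0.24 (*Lhcgr*).

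Set against the germ cell markers of the same library, the 7 partners of *Ttk* had mean ratios of 104.4% to 169.6% of control in Mps1sKO testes. Per 1000 counts of the 10 germ cell markers, *Bub1* was at 56.0 and 55.9 counts in the controls and at 56.5 and 60.4 in Mps1sKO testes, and *Bub1b* had 75.1 and 75.2 against 78.7 and 82.1. *Mad2l1*, at 43.6 and 40.2 against 41.2 and 53.2, and *Trip13*, at 33.7 and 31.3 against 32.2 and 41.6, overlapped between the groups. *Ttk* stayed apart on this scale, with 20.37 and 20.01 counts in control and 10.6 and 12.8 in Mps1sKO testes, 57.8% of the control ratio. *Bub3*, *Mad1l1* and *Mad2l1bp* were higher relative to these markers, at 135.5%, 145.8% and 169.6% of control. The sum of the markers itself fell, from 1367 and 1629 CPM to 1225 and 951.5 CPM, so a gene with unchanged CPM rises on this scale. *Bub3* was nearly such a gene, with a log2 difference of −0.028. The share of all tested loci that separate on this scale was not worked out. Relative to the Sertoli markers, *Mad2l1bp* was at 101.4% of control with overlapping groups, and the other members were at 34.6% (*Ttk*) to 87.2% (*Mad1l1*). The Sertoli sum rose from 5212 and 5571 CPM to 6914 and 6142 CPM, so a gene with unchanged CPM falls on this scale, and *Bub3* was at 81.0%. *Clu* alone held 78103 of the 140357 Sertoli counts in the first control and 101927 of 160211 in the first Mps1sKO library. *Dazl* held 12549 of the 36810 germ cell counts in the first control library. The part of cell composition in the differences of the members was not tested beyond these ratios.

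Genes of proliferation, which are used in dividing germ cells and somatic cells alike, were compared in the same way. Of 10 such genes 8 were lower, against 10268 of all 20561 tested loci. The 10 genes had a median of −0.28 and a range from the topoisomerase gene *Top2a* (−0.39) to the kinase gene *Cdk1* (0.051). At an unadjusted p below 0.05, 6 were lower and 0 higher, against 5.37% and 3.92% of all tested loci. Per 1000 counts of these 10 genes, *Ttk* was at 23.07 and 23.01 in the control libraries and at 11.52 and 11.65 in those of Mps1sKO mice. That is 50.3% of the control ratio, whereas *Bub1*, *Bub1b*, *Mad2l1* and *Trip13* were at 90.9%, 93.1%, 97.35% and 97.95%, and all but *Bub1* overlapped between the groups. *Bub3*, *Mad1l1* and *Mad2l1bp* were higher on this scale without overlap, at 117.9%, 126.9% and 147.6%. The sum of the 10 genes was 1207 and 1416 CPM in control and 1132 and 1044 CPM in Mps1sKO testes. A gene with unchanged CPM, as *Bub3* nearly was, thus rises on this scale too.

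The wider checkpoint pathway was read from 30 other genes, grouped by their role in it. In mean level 28 were lower and 2 were higher in Mps1sKO testes, where 10268 of all 20561 tested loci were lower and 10293 higher. The 30 genes had a median log2 difference of −0.24 and a range of −0.44 to 0.063, so that each was smaller than the change of *Ttk*. Both Mps1sKO libraries were below both control libraries for 21 of the 30 and above them for 0, against 21.1% and 20.3% of all tested loci. At an unadjusted p below 0.05, 13 were lower and 0 were higher in edgeR, where 5.37% of all tested loci were lower and 3.92% higher. DESeq2 gave 7 and 0 and limma-voom 13 and 0 at this threshold. All of these tools called 0 at an adjusted p below 0.05. The count of 13 fell to 2 without the second control library and to 5 without the second Mps1sKO library.

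For the groups below, too, 10268 of all 20561 tested loci were lower. The kinetochore receptors, the KNL1, MIS12 and NDC80 complexes on which MPS1 and the BUB proteins sit, had 9 of 10 genes lower (median −0.23). The lowest was *Spc24*, a subunit of the NDC80 complex, at −0.44 (SE 0.128, edgeR adjusted p = 0.494), and the highest *Zwint*, at 0.063. *Knl1*, which encodes the scaffold that MPS1 phosphorylates, was at 54.4 ± 8.62 CPM in control and 41.7 ± 4.99 CPM in Mps1sKO testes (SD, n = 2), a log2 difference of −0.39. The RZZ complex with Spindly, which recruits MAD1 and dynein to kinetochores, had all 4 genes lower (median −0.33), from *Spdl1* (−0.35) to *Zw10* (−0.13). The chromosomal passenger complex, the shugoshins and their kinases, which sense tension at centromeres and help to recruit MPS1, had 9 of 9 genes lower (median −0.24). Within this group *Haspin*, a histone kinase, was lowest at −0.40 and *Incenp*, the scaffold of the passenger complex, highest at −0.087.

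*Cdc20*, the activator of the anaphase-promoting complex that the checkpoint captures, was at 77.0 and 84.3 CPM in control and 55.8 and 65.3 CPM in Mps1sKO testes. The groups did not overlap, and the log2 difference was −0.41 (SE 0.109) with an adjusted p of 0.494 in edgeR. *Cdc20* was the lowest of the 4 genes for CDC20, cyclin B1, securin and separase (median −0.23), the proteins through which the checkpoint delays anaphase, of which securin, *Pttg1*, was the highest at −0.11. The attachment and nuclear pore partners were *Cenpe*, a kinetochore motor (−0.25), *Tpr*, which holds MAD1 at the nuclear pore (−0.10), and *Usp44*, a deubiquitinase (0.057). All 3 overlapped between the groups.

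**Figure D4:**
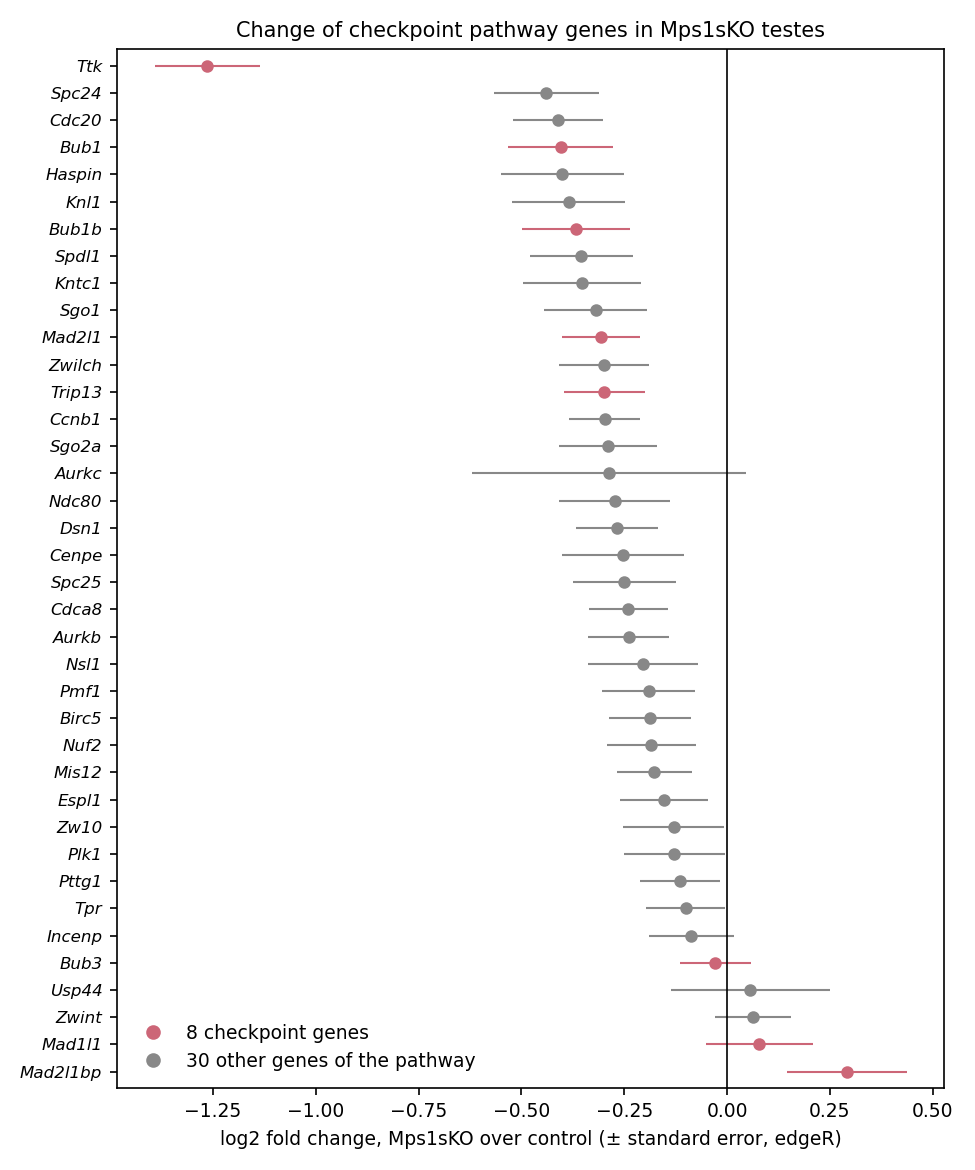
Points give the log2 fold change of Mps1sKO over control with its standard error for the 8 checkpoint genes (red) and the 30 other genes of the pathway (grey), ordered by value. *Ttk* stands alone at −1.26, the next is *Spc24* at −0.44, and *Mad2l1bp* is last at 0.29.

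TRIP13 also acts on other proteins with a HORMA domain, the fold that MAD2 shares with them. *Hormad1*, which coats unsynapsed meiotic chromosome axes, had 18.5 and 24.8 CPM in control and 15.1 and 10.9 CPM in Mps1sKO testes. The groups did not overlap, and its log2 difference of −0.74 (SE 0.199, edgeR adjusted p = 0.494) passed the study's cut-offs. Its relative *Hormad2*, with 9.84 and 11.5 CPM in control and 9.58 and 6.23 CPM in Mps1sKO testes, was separated by a narrow gap, at −0.44 (SE 0.218, edgeR adjusted p = 0.583). *Mad2l2*, a HORMA protein of DNA repair, was at −0.28 (edgeR adjusted p = 0.551), close to *Mad2l1* itself.

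**Figure D5:**
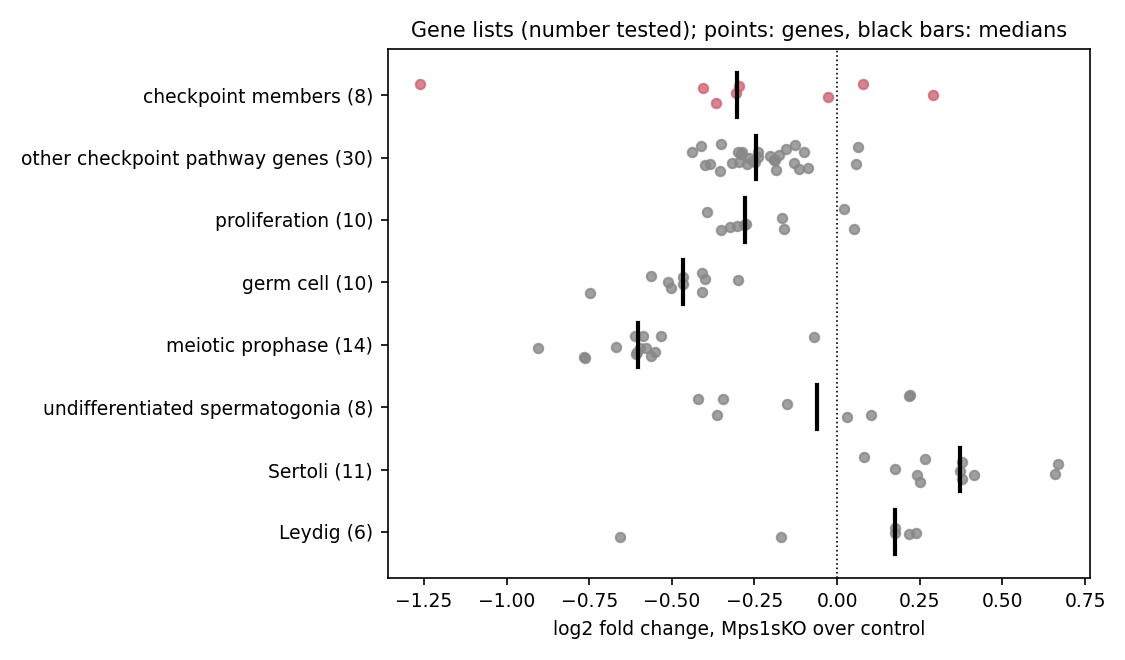
Points are the log2 fold changes (Mps1sKO over control, edgeR) of the tested genes of each list, with the number tested in brackets and the median as a black bar. The 8 checkpoint genes (median −0.30) and 30 other pathway genes (−0.24) lie near the proliferation genes (−0.28), with germ cell (−0.47) and meiotic prophase genes (−0.60) lower and Sertoli genes (0.37) higher.

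The genes most like *Ttk* over the 4 libraries, in the size of the change as well as its shape, were not checkpoint genes. Likeness was measured as the root mean square difference in log2 CPM, after each gene was centred on its own mean. It was taken among 12642 annotated genes with a mean of at least 5 CPM. Genes were not scaled to the size of their change, so partners with smaller changes could not come near *Ttk* whatever their shape. Nearest was *Tpbgl*, on chromosome 7 from 99624082 to 99627103, with a difference of 0.0863, from 187 and 203 counts in the controls against 75 and 76 in the knockouts. Its log2 difference was −1.20 (SE 0.179) with an adjusted p of 0.377 in edgeR. The next were *1700013H16Rik* (0.204), *Esx1* (0.211), *Pik3r2* (0.216) and *Meioc* (0.226), whose log2 differences were −0.87, −0.91, −0.97 and −0.90. Among the partners *Bub1* ranked number 302 by likeness to *Ttk*, *Bub1b* 416, *Mad2l1* 638 and *Trip13* 690, and *Mad2l1bp* came at 11702.

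Many genes of cell division carry a cell cycle homology region, TTTGAA or TTCGAA, and CCAAT boxes close to their start sites, and repressor complexes and NF-Y bind such elements. These letters were searched on both strands from 250 bases before to 50 bases after the start in RefSeq promoters of GRCm38, where all 8 members had at least 1 promoter and 10 in all. The motifs were picked with the promoters in view, TTCGAA reads the same on both strands, and no match in a member overlapped another. Of 32851 promoters, TTTGAA was in 17.9%, TTCGAA in 1.56% and CCAAT in 37.4%. TTTGAA was in those of *Ttk*, *Bub1b* and *Bub3*, TTCGAA in those of *Bub1*, *Bub1b* and *Trip13*, and CCAAT in those of *Ttk*, *Bub1*, *Bub1b* and *Bub3*. A form of the first element was thus in 5 of the 8 genes and in 6 of their 10 promoters, against 19.2% of all promoters. The promoters of *Bub3* overlap and share the same site. None of these letters were found in this window for *Mad1l1*, *Mad2l1* and *Mad2l1bp*. Of the 25 promoters matched to 24 of the 30 other pathway genes, 56.0% had TTTGAA or TTCGAA and 68.0% had CCAAT.

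The stretches from 120 bases before the start to 25 after it are shown for *Ttk* and for the 2 pairs whose ratio varied least, *Bub1* with *Bub1b* and *Mad2l1* with *Trip13*. The RefSeq start of *Mad2l1* used here lies upstream of the start that the expression table gives. The start used here for *Ttk*, 83834689, lies upstream of the first base of Ttk-201, 83834718. All are written in the direction of the gene, with the letters of the motifs, in either direction, in capitals.
*Ttk*, chr9:83834569-83834713, forward strand: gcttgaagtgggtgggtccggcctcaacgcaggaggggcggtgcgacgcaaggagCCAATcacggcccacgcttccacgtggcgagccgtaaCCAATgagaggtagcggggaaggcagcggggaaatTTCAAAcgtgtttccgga
*Bub1*, chr2:127831835-127831979, reverse strand: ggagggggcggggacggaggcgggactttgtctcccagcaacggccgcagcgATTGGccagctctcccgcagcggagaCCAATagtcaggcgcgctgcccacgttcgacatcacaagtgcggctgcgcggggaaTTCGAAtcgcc
*Bub1b*, chr2:118598091-118598235, forward strand: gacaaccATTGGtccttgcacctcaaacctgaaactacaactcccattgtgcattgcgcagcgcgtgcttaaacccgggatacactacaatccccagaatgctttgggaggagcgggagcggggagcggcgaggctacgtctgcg
*Mad2l1*, chr6:66535101-66535245, forward strand: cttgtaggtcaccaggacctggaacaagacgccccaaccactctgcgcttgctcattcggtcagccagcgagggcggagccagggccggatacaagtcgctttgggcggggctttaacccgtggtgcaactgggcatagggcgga
*Trip13*, chr13:73937743-73937887, reverse strand: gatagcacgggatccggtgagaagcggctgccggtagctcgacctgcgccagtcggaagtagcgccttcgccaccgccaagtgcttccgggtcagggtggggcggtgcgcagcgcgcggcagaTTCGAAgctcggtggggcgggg
In *Ttk* the reverse form of TTTGAA begins 8 bases after the RefSeq start, which is before the start of Ttk-201, and CCAAT begins 65 and 28 bases before the RefSeq start. *Trip13* has TTCGAA 4 bases after its start and no CCAAT, and *Mad2l1* has neither, so the pair with the steadiest ratio does not share these letters. *Bub1* has TTCGAA 15 bases after the start, and the TTTGAA of *Bub1b*, beyond the stretch shown, begins 41 bases after it. A match of letters describes the sequence and says nothing about binding in these testes.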

How the data were processed

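The authors deposited 1 table with raw counts per gene, FPKM values and the gene length in exonic bases for 4 libraries, made from paired-end reads. The submitters' processing notes name HISAT2 2.0.5, featureCounts, DESeq2 1.16.1 and build mm10, and strandedness is not given in the sources used here. Genes matched GENCODE M21 for all 55536 annotated identifiers. Of the 55820 loci, 284 had no annotated identifier and 20558 no count.

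Groups follow the genotype label. The test on counts was that of edgeR 4.0.16 under R 4.3.3 (filterByExpr, TMM, quasi-likelihood F test, Benjamini-Hochberg over 20561 loci), and ratios with exact permutation tests in SciPy 1.17.1. CPM are TMM-scaled, and 3 counts, the limit that a count of 0 allows, are 0.104 to 0.129 CPM. The deposited FPKM values served only to compare levels between genes. Library totals were 26819122, 28607746, 23311689 and 27093849 counts, and replicates differed beyond sampling noise (chi-square per degree of freedom 8.49 and 11.6). The members and lists were chosen with earlier results of these data known. Genes named beyond the members passed the study's cut-offs, were the extremes of a list, were nearest to *Ttk*, or are *Cdc20*, *Hormad1* and *Hormad2*. *Knl1*, *Tpr*, *Mad2l2*, *Rhox5*, *Clu*, *Dazl* and *Gm16121* were named after their values were seen. Alternatives were DESeq2 1.42.0, limma-voom 3.58.1, other scalings and filters, a robust dispersion, a replicate block, annotated genes only and each library left out. The scripts were tested on simulated data.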

Additional observations from a re-analysis of the deposited data

How the results depend on the processing

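The log2 change of *Ttk* was −1.37 to −1.15 when each library was left out in turn, where the lone library of a group is assumed to vary like the others, and its adjusted p stayed below 0.05. The change was −1.27 with at least 10 counts in every library (adjusted p = 0.0573), −1.26 with limma-voom (0.0745), −1.26 with annotated genes only (0.0509) and −1.26 with the replicate block (0.224). The sources do not say that equal library numbers mark a pair, and the deviations of equally numbered libraries correlated at −0.19. With the replicate number as a block, the members lower at an unadjusted p below 0.05 went from 5 to 3, those at an adjusted p below 0.05 from 1 to 0, the other pathway genes from 13 to 4, and all loci called lower from 6 to 2. A block with the numbers crossed, added after seeing the data, gave 3 members, 304 lower and 246 higher loci at an adjusted p below 0.05.

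Among the members at an adjusted p below 0.05, the count was 2 without the filter on low counts, and 0 with at least 10 counts, limma-voom or annotated genes only. When each library was left out in turn, it was 1 throughout, the members at an unadjusted p below 0.05 were 1 to 5, and the other pathway genes 2 to 14. DESeq2 called 7 of those pathway genes. The 6 loci called lower became 251 without the filter, 3 with at least 10 counts, limma-voom or annotated genes only, 30 with DESeq2, and 6 to 76 with a library left out. For loci called higher these were 139 without the filter, 7 with DESeq2 and 2 to 35 with a library left out. *Bub1* passed without the filter (−0.40, adjusted p = 0.0283). With a library left out, *Bub3* ranged from −0.068 to 0.010, positive without the first Mps1sKO library, and *Mad1l1* from −0.064 to 0.21, negative without the first control (−0.012) or the first Mps1sKO library (−0.064), and the causes were not tested. The medians of the pathway (−0.30 to −0.17), germ cell (−0.65 to −0.26) and Sertoli lists (0.25 to 0.45) kept their signs with each library left out. No scaling moved the median of all loci by more than 0.021 on the log2 scale. At an unadjusted p below 0.05, the 1105 loci lower became 441 to 1916 and the 807 higher 285 to 1877 over all alternatives. All members had at least 228 counts in each library, and the 2 libraries a group limit the precision.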
